A study of Vitis vinifera with 6 samples.

Results

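Flavonoids are built from a coumaroyl unit by a short chain of enzymes. Chalcone synthase (CHS) joins coumaroyl-CoA with malonyl-CoA to give a chalcone, chalcone isomerase (CHI) closes it into the flavanone naringenin, and flavanone 3-hydroxylase (F3H) turns flavanones into dihydroflavonols. Flavonoid 3′-hydroxylase (F3'H) adds a hydroxyl group to the B ring, dihydroflavonol reductase (DFR) makes leucoanthocyanidins, and leucoanthocyanidin dioxygenase (LDOX) makes anthocyanidins. The chain feeds flavonols, which act as sunscreens in grapevine leaves, proanthocyanidins and anthocyanins, and Chardonnay is a white cultivar whose berry skins do not colour.

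The genes described here are the rows listed for these steps: CHS1, CHS2, CHS3, CHI, a pair of F3H genes, F3'H, DFR and LDOX, 9 in all. Of these 9 identifiers 8 were matched among the 31843 genes of the count table, and all 8 passed the filter on low counts. CHS1 (VIT_214s0068g00930) was not analysed here, so every CHS value is over 2 of the 3 listed genes. The identifiers were VIT_214s0068g00920 for CHS2, VIT_205s0136g00260 for CHS3, VIT_213s0067g03820 for CHI, VIT_217s0000g07200 for F3'H, VIT_218s0001g12800 for DFR and VIT_202s0025g04720 for LDOX. The F3H genes are written F3H-a for VIT_204s0023g03370 and F3H-b for VIT_218s0001g14310. The names come from the list that chose the genes, because the reference table paired 0 of the table's identifiers with a name.

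The study set embryogenic callus (EC), a proliferating culture of embryogenic cells, against young leaves of the grapevine cultivar Chardonnay, with 3 libraries of ribosome-depleted RNA for each tissue. EC had been raised from anthers and kept on solid medium in the dark for some months, and each EC sample pooled several Petri dishes. Each leaf sample pooled several young leaves from the vineyard vines that had given the anthers. Tissue and growth in the dark can therefore not be told apart in any difference below. In such bulk samples, fewer cells that use a gene and less RNA per cell cannot be told apart either. The p-values measure the spread between these pooled samples.

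Counted reads ranged from 13123072 to 24209752 per library. One library, leaf replicate 3, stood apart. It had the fewest counted reads, though the paper lists more read pairs for it than for leaf replicate 2 or EC replicate 2. The paper also gives it the lowest rates of mapping and proper pairing on the reference genome used for counting. Its 100 most abundant genes took 37.0% of its gene counts, against 15.6% to 19.1% in the other 5. Its scaling factor, from edgeR's trimmed mean of M-values method (TMM), was 0.658 against 0.961 to 1.19. The part of these properties in the results below was not tested. The edgeR calls and fold changes, step sums, shares and ratios are given with and without this library, and other results with all 6 libraries. The tissue labels were not checked against marker genes, because no identifier of a marker could be matched.

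The 8 genes together held 112345, 142516 and 1796 counts in leaf replicates 1, 2 and 3. The EC replicates held 13178, 26125 and 14258 counts. As counts per 1000000 of TMM-scaled library size (CPM), these sums were 4966, 6717 and 208 in leaf and 508, 989 and 495 in EC. Flavonoid transcripts were thus abundant in leaf replicates 1 and 2, several times lower in each EC library, and lowest in leaf replicate 3.

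**Figure D1:**
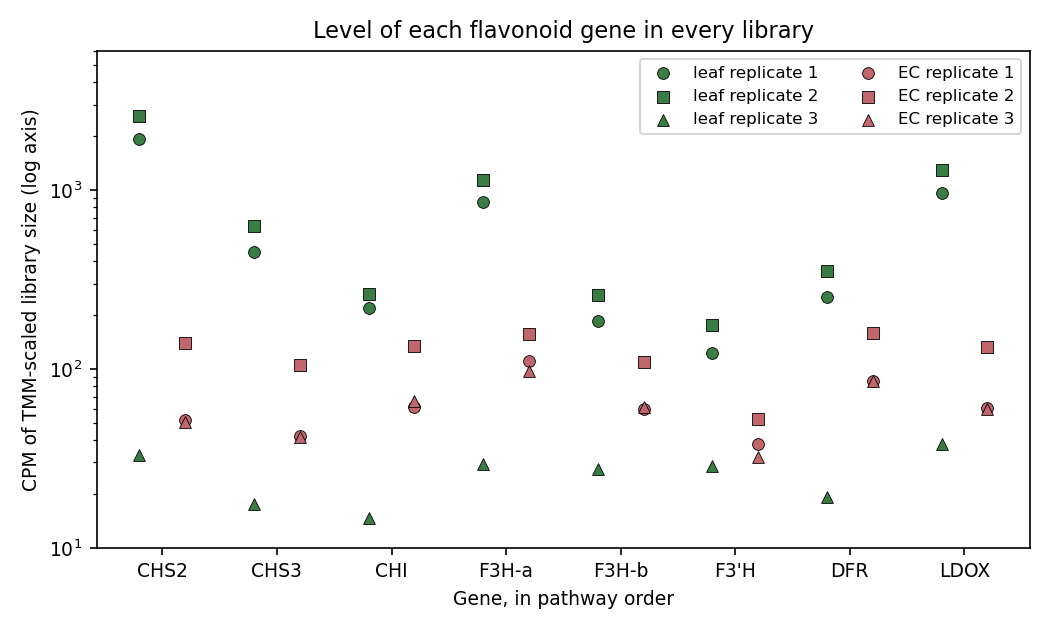
Level of each gene in every library, in CPM of TMM-scaled library size on a log axis, with genes in pathway order, leaf in green and EC in red. In each of the 8 genes leaf replicates 1 and 2 lie above the EC libraries and leaf replicate 3 lies below them; for CHS2 the range runs from 33.1 in leaf replicate 3 to 2600 in leaf replicate 2.

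Leaf replicates 1 and 2 lay above every EC library and leaf replicate 3 lay below every EC library in 8 of 8 genes, a pattern found in 7.16% of the 21550 genes and transposable element families tested. In addition, leaf replicate 2 lay above leaf replicate 1, and EC replicate 2 was the highest of EC, in 8 of 8 genes and in 2.13% of all features tested. Both orders were read off these 8 genes, so the percentages describe how common the orders are and test nothing. Between the 6 libraries, the highest level was 6.13 times the lowest for F3'H and 78.6 times for CHS2, with the other genes between these. Since leaf replicate 3 fell on the far side of EC, the libraries of the tissues overlapped in all 8 genes, whereas they did not overlap in 69.6% of the features tested.

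With all 6 libraries, no flavonoid gene was called different between EC and leaf. A call required at least a 2-fold change and an adjusted p under 0.05 (quasi-likelihood test of edgeR, Benjamini-Hochberg over all features). Lower levels in EC were called for 0 of 8 genes, against 25.1% of all features (5401), and higher levels for 0 of 8 against 17.3% (3722). Scaled by library sizes alone, 0 of the 8 genes were called either, while 20.3% of features (4379) were lower in EC and 26.9% (5806) higher. At an unadjusted p under 0.05 the test had 2 of the 8 genes, CHS2 and LDOX, against 60.4% of all features. DESeq2, the tool of the study's methods, called 4 of 8 lower in EC against 27.7% of features: CHS2, CHS3, F3H-a and LDOX. For limma-voom the number was 0 against 23.5% of features lower in EC. For limma-voom with sample weights, an alternative added after the data had been seen, it was 8 against 27.6%. This method weights each library by its fit, and the weights were not recorded. The median log2 fold change of the 8 genes was −2.41 with these weights and −2.44 in edgeR without leaf replicate 3. The 2 settings are therefore not read as separate results.

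Without leaf replicate 3, all 8 genes were called lower in EC, against 29.4% of features. Their log2 fold changes then ran from −4.79 for CHS2 to −1.44 for DFR (edgeR, adjusted p from 4.82e-05 to 0.0083). With any other single library left out, 0 of the 8 were called, against 23.4% and 24.2% of features lower in EC without leaf replicates 1 and 2 and 18.9%, 19.0% and 18.7% without EC replicates 1, 2 and 3. The median log2 fold change of the 8 genes was −1.95 with all libraries and −2.44 without leaf replicate 3, beside medians over all features of −0.04 and 0.0045. So the direction of the fitted change was down in both, and the call depended on that library.

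**Figure D2:**
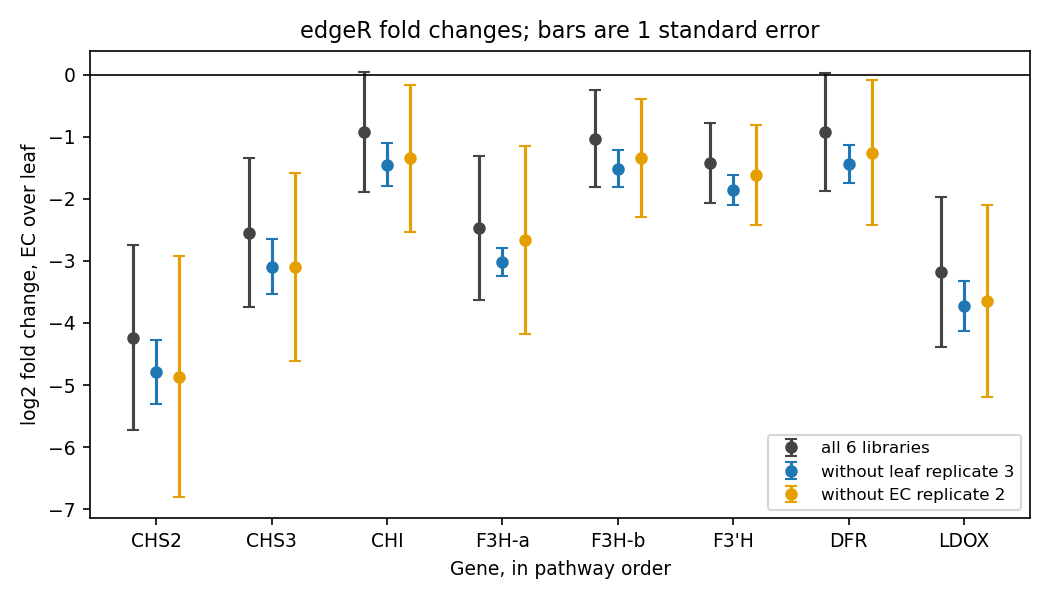
edgeR log2 fold change of EC over leaf for each gene in pathway order, with bars of 1 standard error, from all 6 libraries (grey), without leaf replicate 3 (blue) and without EC replicate 2 (orange). All points lie below 0; for CHS2 the standard error is 1.49 with all libraries and 0.51 without leaf replicate 3.

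At the entry of the pathway, CHS2 had 1918, 2600 and 33.1 CPM in leaf replicates 1, 2 and 3. Its levels in the EC replicates were 51.9, 139.8 and 50.2 CPM. Its spread within leaf was the widest of the 8 genes, and the EC libraries lay near the low end of it. The mean was 1517 ± 1330 for leaf and 80.6 ± 51.3 for EC (SD over 3 libraries). The log2 fold change of −4.23 had a standard error of 1.49 (adjusted p = 0.0566, edgeR). Without leaf replicate 3 it was −4.79 with a standard error of 0.51 (adjusted p = 2.37e-04, edgeR), and the mean of the remaining leaf libraries was 28.0 times that of EC.

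CHS3, the other CHS gene measured, had 453, 632 and 17.6 CPM in the leaf replicates and 41.9, 105.0 and 41.8 in the EC replicates. It kept the order of CHS2 over a narrower range. Its log2 fold change was −2.55 with a standard error of 1.20 (adjusted p = 0.122, edgeR), and −3.09 with a standard error of 0.44 without leaf replicate 3 (adjusted p = 8.94e-04, edgeR).

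CHS3 made up a higher share of the measured CHS counts in these EC libraries than in these leaf libraries, though not at an adjusted p under 0.05. Of the counts on CHS2 and CHS3, CHS3 took 19.1% (95% Wilson interval 18.8 to 19.4), 19.5% (19.2 to 19.8) and 34.8% (30.5 to 39.4) in leaf replicates 1, 2 and 3. In EC replicates 1, 2 and 3 it took 44.7% (42.7 to 46.7), 42.9% (41.7 to 44.1) and 45.5% (43.6 to 47.4). All EC shares exceeded all leaf shares, that of leaf replicate 3 included, and the difference of 19.9 percentage points had the smallest p that 3 libraries against 3 allow (two-sided exact permutation test, p = 0.1; adjusted p = 0.2 over the 2 shares tested). The difference was 25.0 points without leaf replicate 3. How often shares within other gene pairs separate the tissues was not computed, and the levels of single features did not overlap in 69.6% of those tested. A share within a library does not depend on how libraries were scaled. The intervals cover counting error only, and how reads that fit several gene copies were divided is not given in the sources used here, so the split between paralogues is uncertain.

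CHI, the next enzyme, stood at 219, 262 and 14.6 CPM in the leaf libraries and at 60.9, 134 and 66.5 CPM in the EC libraries. Leaf replicate 3, with 126 counts, lay several-fold under EC. Its fitted change was among the smallest, −0.93 on the log2 scale with a standard error of 0.97 (adjusted p = 0.452, edgeR). The value without leaf replicate 3 was −1.45 with a standard error of 0.34 (adjusted p = 0.0083, edgeR).

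The F3H genes differed in the size of their fall from leaf replicates 1 and 2 to EC. F3H-a had 856, 1143 and 29.3 CPM in the leaf replicates and 111, 157 and 97.8 in EC, so the mean of leaf replicates 1 and 2 was 8.20 times that of EC. F3H-b had 185, 258 and 27.6 CPM in leaf and 59.6, 109 and 61.4 in EC, and the same multiple was 2.89. Neither was called with all libraries, with adjusted p-values of 0.122 and 0.303 (edgeR) and log2 fold changes of −2.47 and −1.03. Without leaf replicate 3 these changes were −3.02 and −1.51, with standard errors of 0.23 and 0.30 (adjusted p = 4.82e-05 and 0.00359, edgeR).

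Of the F3H counts, F3H-b took 17.8% (95% Wilson interval 17.3 to 18.3), 18.4% (18.0 to 18.9) and 48.6% (44.2 to 53.0) in leaf replicates 1, 2 and 3. The EC replicates stood at 34.9% (33.5 to 36.3), 41.1% (39.9 to 42.2) and 38.6% (37.2 to 40.0). Leaf replicate 3 lay above EC here, unlike in the CHS share, and the tissues overlapped (two-sided exact permutation test, p = 0.4; adjusted p = 0.4 over the 2 shares). The mean difference of 9.93 points was 20.1 points without that library (exact p = 0.2, the value that complete separation of 2 from 3 libraries gives).

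F3'H, which sets the B-ring pattern, varied least. Its levels were 122, 177 and 28.8 CPM for leaf and 37.8, 52.2 and 32.4 CPM for EC, so leaf replicate 3 came close to the lowest EC library. The mean of leaf replicates 1 and 2 was 5.19 times leaf replicate 3, the smallest multiple of the 8 genes. Its log2 fold change was −1.42 with a standard error of 0.65 (adjusted p = 0.113, edgeR), and −1.86 with a standard error of 0.24 without leaf replicate 3 (adjusted p = 5.25e-04, edgeR).

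DFR, which commits dihydroflavonols to leucoanthocyanidins, showed the smallest fitted change. It stood at 251, 351 and 19.3 CPM in leaf and 85.2, 159 and 85.2 in EC, a log2 fold change of −0.92 with a standard error of 0.95 (adjusted p = 0.446, edgeR). Without leaf replicate 3 it was −1.44 with a standard error of 0.31 (adjusted p = 0.00549, edgeR).

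LDOX, the last step, showed the second largest. Its levels were 961, 1294 and 38.2 CPM in leaf and 60.1, 133 and 59.6 in EC, and leaf replicate 3 was nearer to EC than in CHI or DFR. The mean was 764 ± 651 for leaf and 84.2 ± 42.2 for EC (SD over 3 libraries), with a log2 fold change of −3.18 and a standard error of 1.21 (adjusted p = 0.0699, edgeR). The change was −3.73 with a standard error of 0.40 without leaf replicate 3 (adjusted p = 2.31e-04, edgeR), and the mean of leaf replicates 1 and 2 was 13.4 times that of EC.

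Summed over the listed genes of each step, no step separated the tissues with all libraries. The mean log2 CPM of EC minus leaf was −2.51 for CHS, −0.21 for CHI, −1.17 for F3H, −1.09 for F3'H, −0.19 for DFR and −2.21 for LDOX. The two-sided exact permutation test gave p = 0.4 for CHS, F3H, F3'H and LDOX and p = 1.0 for CHI and DFR (adjusted p of 0.6 and 1.0 over the 6 steps). Scaled by library sizes alone, the CHI and DFR differences were 0.26 and 0.28, so their direction was not settled by these means. Without leaf replicate 3 all 6 differences were below 0, from −4.43 for CHS to −1.50 for DFR. The libraries then separated in each (exact p = 0.2, the value such a separation gives for 2 against 3). The share of all features that separate without this library was not computed.

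Ratios of counts between neighbouring steps compare the make-up of the pathway within a library and are free of the scaling. They are ratios of counts, not of molecules, because transcripts differ in length, so only their differences between libraries are read. The CHS counts were 10.8, 12.3 and 3.47 times the CHI counts in leaf replicates 1, 2 and 3. In the EC replicates they were 1.54, 1.83 and 1.38 times. All leaf libraries lay above all EC libraries. The mean log2 ratio was 2.95 ± 1.01 in leaf and 0.65 ± 0.20 in EC (SD, n = 3).

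At the end of the pathway, DFR over LDOX was 0.262, 0.271 and 0.505 in the leaf replicates and 1.42, 1.20 and 1.43 in the EC replicates. The ratio was thus higher in each EC library than in any leaf library. The mean log2 ratio was −1.60 ± 0.53 in leaf and 0.43 ± 0.15 in EC (SD, n = 3).

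CHI over F3H was also separated, at 0.211, 0.187 and 0.257 in leaf and 0.357, 0.504 and 0.418 in EC. F3'H over DFR was 0.487, 0.503 and 1.49 in leaf and 0.444, 0.328 and 0.380 in EC, and its mean difference of −0.91 on the log2 scale became −0.38 without leaf replicate 3. For F3H over F3'H the tissues overlapped, with 8.51, 7.94 and 1.98 in leaf and 4.51, 5.09 and 4.92 in EC. The 4 separated ratios had p = 0.1 in the two-sided exact permutation test, the smallest possible, and an adjusted p of 0.125 over the 5 ratios, so none passed 0.05 in a design of this size. F3H over F3'H had p = 1.0 in the same exact test. Taken in pathway order, the differences in mean log2 ratio, EC minus leaf, were −2.30, 0.96, −0.08, −0.91 and 2.03. When leaf replicate 3 was left out they were −2.88, 1.09, −0.77, −0.38 and 2.33. The tissues then separated in all 5 (exact p = 0.2 each, the value of complete separation). Neighbouring ratios share a step, so the 5 are not separate results. How often ratios of other features separate the tissues was not computed.

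**Figure D3:**
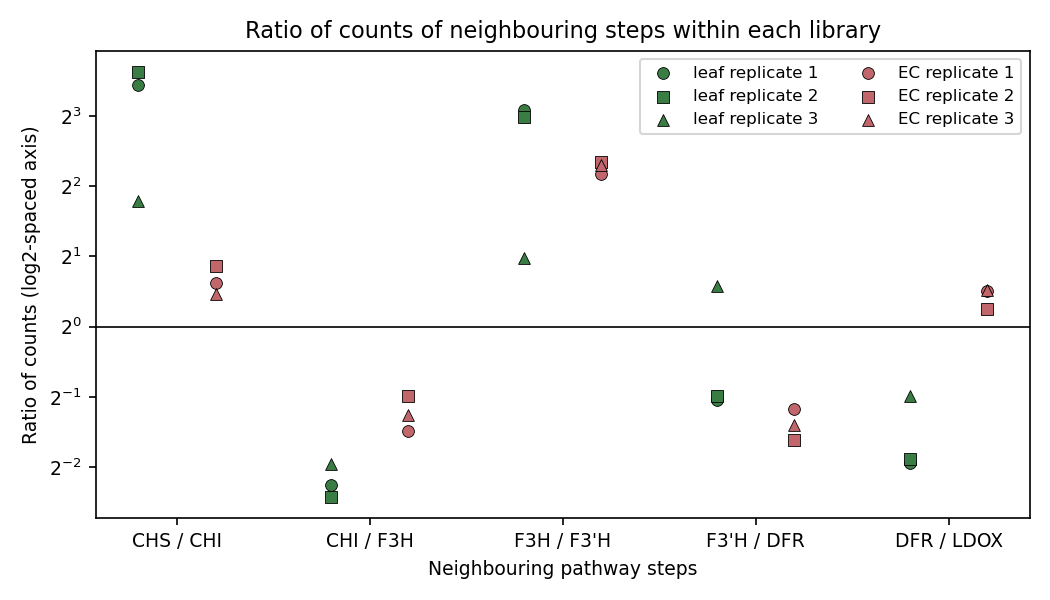
Ratio of the counts of neighbouring pathway steps within each library, on a log2-spaced axis, leaf in green and EC in red; CHS is the sum of CHS2 and CHS3, and F3H the sum of both F3H genes. Leaf and EC do not overlap in CHS over CHI, CHI over F3H, F3'H over DFR and DFR over LDOX, and they overlap in F3H over F3'H, where leaf replicate 3 lies lowest at 1.98.

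As shares of the counts on the 8 genes, CHS2, CHI, DFR and LDOX separated the tissues and the other 4 genes did not. The shares divide the same total, so a lower share of CHS2 by itself raises those of the other genes. They are therefore not separate results, and this measure has no share over all features to set beside it. CHS2 held 38.6% and 38.7% of the counts on the 8 genes in leaf replicates 1 and 2, 15.9% in leaf replicate 3 and 10.1% to 14.1% in EC. LDOX held 18.3% to 19.4% in the leaf libraries, leaf replicate 3 included, and 11.8% to 13.4% in EC. DFR held 5.06%, 5.23% and 9.24% in leaf and 16.1% to 17.2% in EC, and CHI 3.90% to 7.02% in leaf and 12.0% to 13.6% in EC. In LDOX, DFR and CHI, leaf replicate 3 stood on the leaf side of EC. CHS3 overlapped, with 8.46% to 9.40% in leaf and 8.25% to 10.6% in EC, as did F3H-a, with 14.0% to 17.2% and 15.8% to 21.8%, and F3H-b, with 3.73% to 13.3% and 11.0% to 12.4%. In F3'H leaf replicate 3 stood apart from both tissues' other libraries, with 13.8%, where leaf replicates 1 and 2 had 2.46% and 2.63% and EC had 5.28% to 7.44%.

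**Figure D4:**
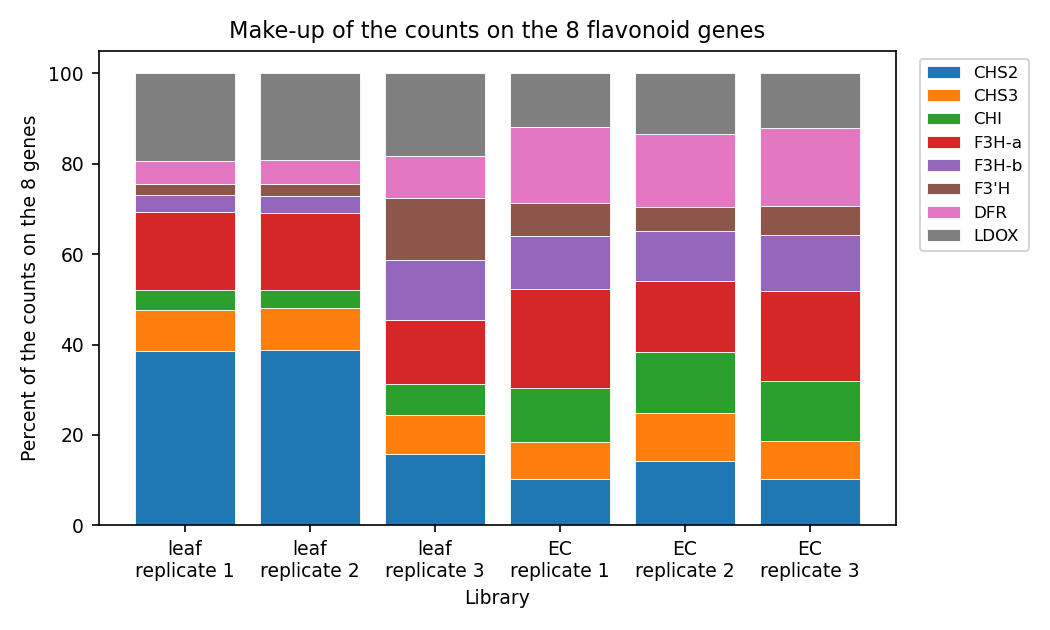
Stacked shares of each gene in the counts on the 8 flavonoid genes, in percent, for each of the 6 libraries. CHS2 fills 38.6% and 38.7% of the bars of leaf replicates 1 and 2 and 10.1% to 14.1% of the EC bars, where DFR and CHI take more; the bar of leaf replicate 3 rests on 1796 counts.

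Within leaf, the mean of replicates 1 and 2 was 5.19 times (F3'H) to 68.3 times (CHS2) the level of replicate 3, with a median of 23.0 over the 8 genes. The median of this multiple was 1.01 over the tested features that had counts in leaf replicate 3. The multiple reached 10 in 6 of 8 flavonoid genes, all but F3H-b and F3'H, and in 5.94% of all features. That percentage includes features without counts in leaf replicate 3, which pass at any level in leaf replicates 1 and 2. TMM scaling sets the typical feature near 1, so these multiples are relative to it. Leaf replicate 3 held 126 to 329 counts per gene.

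Within EC, replicate 2 was higher than the mean of replicates 1 and 3 by 1.49 times (F3'H) to 2.74 times (CHS2). The median was 1.99 over the genes and 0.993 over all features for which this multiple is finite. CHS3 and LDOX followed CHS2, at 2.51 and 2.22 times, and F3H-a was near F3'H, at 1.50 times. EC replicate 2 was the highest EC library in 8 of 8 genes and in 32.6% of all features. A multiple as large as that of F3'H, the lowest of the 8 genes, or larger was found in 7.72% of features. Both percentages follow a pattern read off these genes and are a description. In every gene EC replicates 1 and 3 lay closer to each other than to replicate 2. Leaf replicate 2 was 1.20 times (CHI) to 1.44 times (F3'H) leaf replicate 1, where the median of all features with a finite multiple was 1.00.

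Across the 6 libraries, the log2 levels of the 28 pairs of flavonoid genes had a Pearson's r between 0.854 and 0.9995, given as a description over points that include both tissues and leaf replicate 3. CHS2 and LDOX had the highest r and CHS2 and DFR the lowest. Outside these genes, 17 to 83 tested genes per flavonoid gene had an r above 0.99, so the closest is one of many. The gene whose pattern was closest to CHS3 was VIT_206s0004g02620 (r = 0.998, n = 6 libraries), with 13195, 15135 and 100 counts for leaf and 1021, 2780 and 1101 for EC. For F3H-b it was VIT_203s0088g00260 (r = 0.997, n = 6), with 5501, 6818 and 93 counts in leaf and 904, 2164 and 1008 in EC. Both repeated the high EC replicate 2 and the low leaf replicate 3. The closest to CHS2 was VIT_210s0042g00940, a gene of low counts with 104, 130 and 2 in leaf and 10, 18 and 10 in EC. Those closest to CHI, F3H-a, F3'H, DFR and LDOX were VIT_218s0001g13240, VIT_201s0010g03610, VIT_201s0150g00160, VIT_218s0072g00940 and VIT_214s0083g00410, with log2 fold changes of −0.55 to −0.04 that were each smaller than that of the flavonoid gene itself, since r takes no account of the size of a change.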

How the data were processed

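Ribosome-depleted RNA of 3 leaf and 3 EC samples was sequenced as read pairs, 1 library per sample, and samples were grouped by tissue and replicate number from their titles. The authors deposited raw counts, without normalisation, made by trimming reads, removing tRNA and rRNA reads, mapping to PN40024 12X with HISAT2 2.2.1 and counting V2.1 genes and 232 TE families with TEtranscripts 2.2.1. Whether the counting used strand is not given in the sources used here, so reads of a gene and of an antisense partner may not be told apart.

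The whole table was fitted with edgeR 4.0.16 (R 4.3.3): filterByExpr (minimum count 10, minimum total 15), TMM, robust quasi-likelihood test and Benjamini-Hochberg adjustment over 21550 features. CPM are counts over library size times the TMM factor. Standard errors were the log2 fold change over the square root of F. Tissues were compared on step sums, shares and ratios by exact permutation tests (scipy 1.17.1), with Wilson intervals at 95%. On simulated counts with 200 features changed 4-fold at a dispersion of 0.05, edgeR recovered 200 with 6 false calls among 22180. That dispersion is below that of the data, whose common biological coefficient of variation was 0.419.

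Genes are named by the list of 9 and, per gene, the tested gene of highest r over the libraries on log2 CPM (prior count 2). Members, lists and tests were chosen with earlier results of these data known. Alternatives were DESeq2 1.42.0, its size factors in edgeR, library sizes alone, other TMM and filter choices, limma-voom from limma 3.58.1, a block for the replicate number, and leaving out each library; sample weights were added after the data had been seen. Other pathway genes, marker lists and sequences were not analysed here, because identifiers could not be matched. Figures used matplotlib 3.10.9.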

Additional observations from a re-analysis of the deposited data

How the results depend on the processing

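The number of the 8 flavonoid genes called was 0 in edgeR with all libraries and 0 with other scalings, other filters, without the 2-fold limit, in limma-voom and with the replicate number as a block. It was 4 with DESeq2, 8 with limma-voom with sample weights, and 0 to 8 with single libraries left out, where 8 was reached only without leaf replicate 3. All 8 log2 fold changes stayed below 0 in every fit of edgeR, DESeq2 and limma-voom. The share of all features below 0 was not computed, and medians over all features ran from −0.17 (DESeq2) to 0.41 (library sizes alone). Each fit kept leaf replicate 1 or 2 and the 8 genes moved together, so the 8 signs are not separate results. The differences in mean log2 CPM of CHI and DFR did change direction, as given below. Over all features and in either direction, 9123 of 21550 tested were called in edgeR with all libraries, and 11655 without the 2-fold limit. Other scalings called 9070 to 10185 of 21550, limma-voom 9137 and the replicate block 7866. No filter on low counts gave 10129 of 28238, and 10 counts required in every library gave 5553 of 16375. DESeq2 called 10945 of 25105, and limma-voom with sample weights 10646 of 21550. With single libraries left out, the number ran from 7050 of 22487 to 11494 of 22537. Library sizes alone moved the median log2 fold change of all features from −0.04 to 0.41. Replicate numbers were not treated as pairs in the main fit. Deviations of same-numbered libraries had r of 0.028, 0.090 and 0.125, and those of differently numbered libraries had r of −0.122 to 0.080. Whether the numbers pair the samples was not settled by these values.

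The summed level of CHI reversed to 0.26, and that of DFR to 0.28, with library sizes alone. With single libraries left out, the difference in mean log2 CPM ran from −1.56 to 0.53 for CHI and from −1.50 to 0.59 for DFR, and the log2 ratio of F3H to F3'H from −0.77 to 0.29. The cause was not tested. The other steps, shares and ratios kept their direction when libraries were left out. The alternatives for other pathway genes were not run. With 3 libraries against 3, no exact test could reach 0.05. The 8 genes had 126 to 55174 counts per library, and the effect of depth was not tested.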
